A study of Mus musculus with 12 samples.

Results

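Described here are the genes of 2 secreted or membrane-anchored protease families, the matrix metalloproteinases (MMPs) and the ADAMTS proteases, in cultured mouse liver cells treated with riociguat. Members were taken by name: every gene of the deposited table whose Ensembl identifier maps to a symbol made of Mmp or Adamts followed by a digit, with the Adamtsl genes left out because their products lack the protease domain. This gave 42 members, 23 MMP genes and 19 ADAMTS genes, among 53452 genes in the table. Of the 42 members, 33 passed the filter on low counts and were tested (19 MMP and 14 ADAMTS genes), and 9 did not.

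RNA sequencing was done on wild-type mouse cells that the labels call HSCs, read here as hepatic stellate cells, the pericytes of the liver that store retinoids and lay down matrix when activated. Riociguat stimulates soluble guanylate cyclase and so raises cyclic GMP; DMSO is its solvent. Cells were cultured for 12 h after isolation, the medium was changed, and every group was collected 24 h after that change. The 4 groups, with 3 libraries each, were riociguat for the last 6 h (added 18 h after the medium change), riociguat for the last 12 h (added 12 h after it), riociguat for the whole 24 h (added with the new medium) and DMSO for the last 12 h (added 12 h after it). The 12 h pair was matched in exposure time and in time of addition. In the comparisons of 6 h and of 24 h of riociguat with DMSO 12 h, and of the exposures with each other, exposure time and time of addition changed together and cannot be told apart. No source used here states the dose. Whether the 3 libraries of a group come from different animals is not stated either, so the p-values describe the spread among these libraries alone, and that spread may be technical.

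MMPs are zinc proteases made as inactive precursors that together cleave most components of the extracellular matrix. Their groups are the collagenases, which cut fibrillar collagen, the gelatinases, which degrade denatured and basement membrane collagen, the stromelysins, which have broad substrates and activate other MMPs, and the membrane-type MMPs, which act at the cell surface. ADAMTS proteases are related secreted enzymes with thrombospondin repeats that cleave proteoglycans, trim procollagens or process other matrix and plasma proteins. In the liver, stellate cells produce fibrillar collagen together with proteases of both families and their inhibitors, the TIMPs, and the balance between them bears on how scar tissue is built and removed.

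Library totals ranged from 12953096 to 27358893 counts. The stellate marker list was present in full, with all 14 genes tested and summed levels between 3705 and 4253 CPM (counts scaled to a common library total) over the 12 libraries. Markers of other liver cells were also measured. The 13 endothelial markers summed to 1514 to 1601 CPM in riociguat 6 h, 1186 to 1247 CPM in riociguat 12 h and 1052 to 1102 CPM in riociguat 24 h, against 1232 to 1350 CPM in DMSO 12 h. The 12 hepatocyte markers summed to 1081 to 1236, 1201 to 1480 and 609 to 852 CPM after 6, 12 and 24 h of riociguat, against 1273 to 1332 CPM in DMSO 12 h. Over all libraries, the 12 macrophage markers (11 tested) summed to 124 to 170.1 CPM, the 11 portal fibroblast and mesothelial markers to 1003 to 1224 CPM, and the 9 lymphocyte markers (5 tested) to 1.73 to 5.28 CPM. The 8 cholangiocyte markers (7 tested), which include the widely expressed Spp1, summed to 513 to 1025 CPM. Within groups, DMSO replicate 1 stood farthest from its companions, with a chi-square per degree of freedom of 12.3 and 16.0 against DMSO replicates 2 and 3, where the other pairs had 4.08 to 7.93. Without it, 5, 9 and 7 members were called against DMSO after 12, 6 and 24 h of riociguat, where 4, 8 and 5 were called with it. Among the tested members, precision followed abundance. On the log2 scale, the median standard error was 0.34 for the 12 members under 5 CPM, of which 1 had a call, and 0.094 for the 21 members at 5 CPM or more, of which 12 had one.

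Levels of different genes were compared as CPM per kilobase of annotated exon, since longer transcripts collect more reads. In DMSO 12 h, Mmp3 (stromelysin-1) was the most abundant member at 248 CPM per kb. It was followed by Mmp14 (membrane-type 1 MMP) at 78.6, Mmp2 (gelatinase A) at 58.95, Adamts1 at 37.7 and Mmp10 (stromelysin-2) at 24.4 CPM per kb. Adamts2 came next at 16.6, then Adamts9 at 10.4 and Mmp13 (collagenase-3) at 10.1 CPM per kb. Mmp3 therefore led the order by a wide margin in every group, with 361, 250.2 and 360.1 CPM per kb after 6, 12 and 24 h of riociguat. It alone supplied 32.2 ± 0.50% of the summed member CPM in riociguat 6 h, 24.0 ± 0.69% in riociguat 12 h and 30.2 ± 0.36% in riociguat 24 h, against 22.3 ± 0.68% in DMSO 12 h (SD, n = 3 each). Mmp14 supplied 19.3 ± 0.95%, 22.6 ± 0.82% and 18.7 ± 0.53% after 6, 12 and 24 h of riociguat, against 23.4 ± 1.47% in DMSO 12 h. These shares, and the sums that follow, use CPM not scaled for length, so they compare groups and do not rank genes. The 19 ADAMTS genes summed to 611 ± 5.60 CPM in riociguat 6 h, 655 ± 10.4 CPM in riociguat 12 h and 730.1 ± 13.6 CPM in riociguat 24 h, against 707 ± 14.7 CPM in DMSO 12 h. The 23 MMP genes summed to 1409 ± 40.3, 1222 ± 24.2 and 1416 ± 24.3 CPM after 6, 12 and 24 h of riociguat, against 1293 ± 29.4 CPM in DMSO 12 h. The ADAMTS sum was thus lowest after 6 h, while the MMP sum was lowest after 12 h. Mmp3 is part of the MMP sum. It averaged 650.4, 450.7 and 648.6 CPM after 6, 12 and 24 h of riociguat, against 446.3 CPM in DMSO 12 h. The sum without Mmp3 was not taken, so the order of the MMP sum is not read as that of the other MMP genes.

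**Figure D1:**
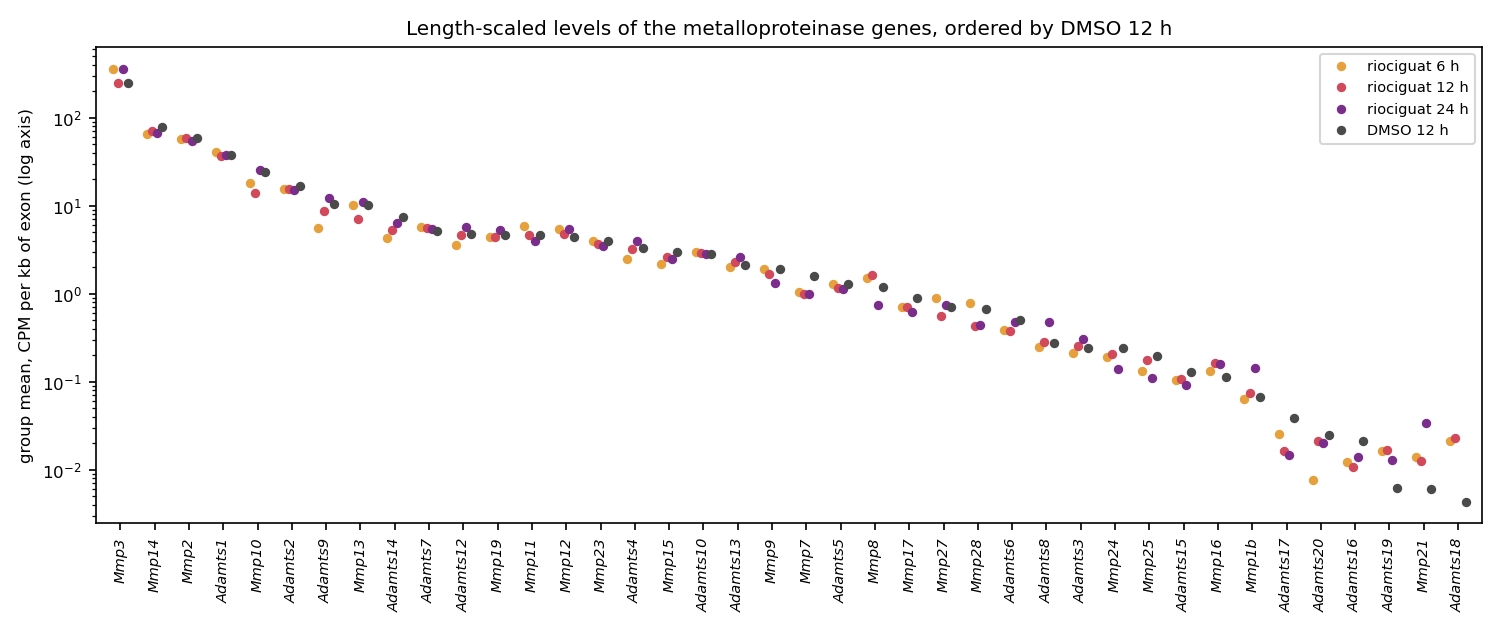
Group mean of each member with a DMSO 12 h mean above 0, in CPM per kb of exon (log axis), ordered by the DMSO 12 h level, with 1 point per group (riociguat 6, 12 and 24 h and DMSO 12 h, 3 libraries each) and means of 0 in other groups not drawn. Mmp3 sits apart at the top, with 361 and 360.1 CPM per kb after 6 and 24 h of riociguat, and Adamts9 spreads from 5.54 CPM per kb after 6 h to 12.1 CPM per kb after 24 h.

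The 9 members that did not pass the filter were Mmp1a, Mmp1b, Mmp20, Mmp21, Adamts16, Adamts17, Adamts18, Adamts19 and Adamts20. Mmp20, the enamel protease, had 0 counts in all 12 libraries, which allows up to 0.0120 CPM over the summed libraries (the level of 3 counts, counting error only). Mmp1a and Mmp1b, the mouse counterparts of human interstitial collagenase, had 5 and 31 counts in total. Mmp1b overlaps Mmp12 on the opposite strand, and no source used here states whether the counting used strand. The other 6 had between 11 counts in total (Mmp21) and 47 counts (Adamts17 and Adamts19).

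After 12 h, the time-matched comparison of riociguat with DMSO, 4 of 33 tested members (12.1%) passed the test, all of them lower with riociguat: Mmp10, Mmp13, Adamts14 and Adamts9. Over all 16036 genes tested 5.66% were called (2.18% higher and 3.48% lower) by edgeR's quasi-likelihood test, at a Benjamini-Hochberg adjusted p under 0.05. The median log2 fold change was -0.10 over the members and 0.0020 over all genes. After 6 h, 8 members (24.2%) were called, against 9.72% of all genes (4.48% higher and 5.24% lower). Mmp3 and Mmp11 rose, and Mmp10, Mmp14, Mmp15, Adamts9, Adamts12 and Adamts14 fell. The count was 5 without DMSO replicate 2 and 4 without DMSO replicate 3. After 24 h, 5 members (15.2%) were called, against 13.4% of all genes (5.94% higher and 7.41% lower), so the members' share was close to the background. Mmp3, Adamts9 and Adamts12 rose, and Mmp14 and Adamts2 fell. The count was 2 without DMSO replicate 2 or 3 and 3 without riociguat 24 h replicate 1. The 3 comparisons share the DMSO libraries, so their values are not independent of each other. In total, 13 members were called in at least 1 of the 6 comparisons made (7 MMP and 6 ADAMTS genes), and 20 tested members in none. These 13 are 39.4% of the tested members, against 25.1% of all genes called in at least 1 of the 6 comparisons. In a bulk sample, fewer cells of a type and less RNA per cell cannot be told apart.

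**Figure D2:**
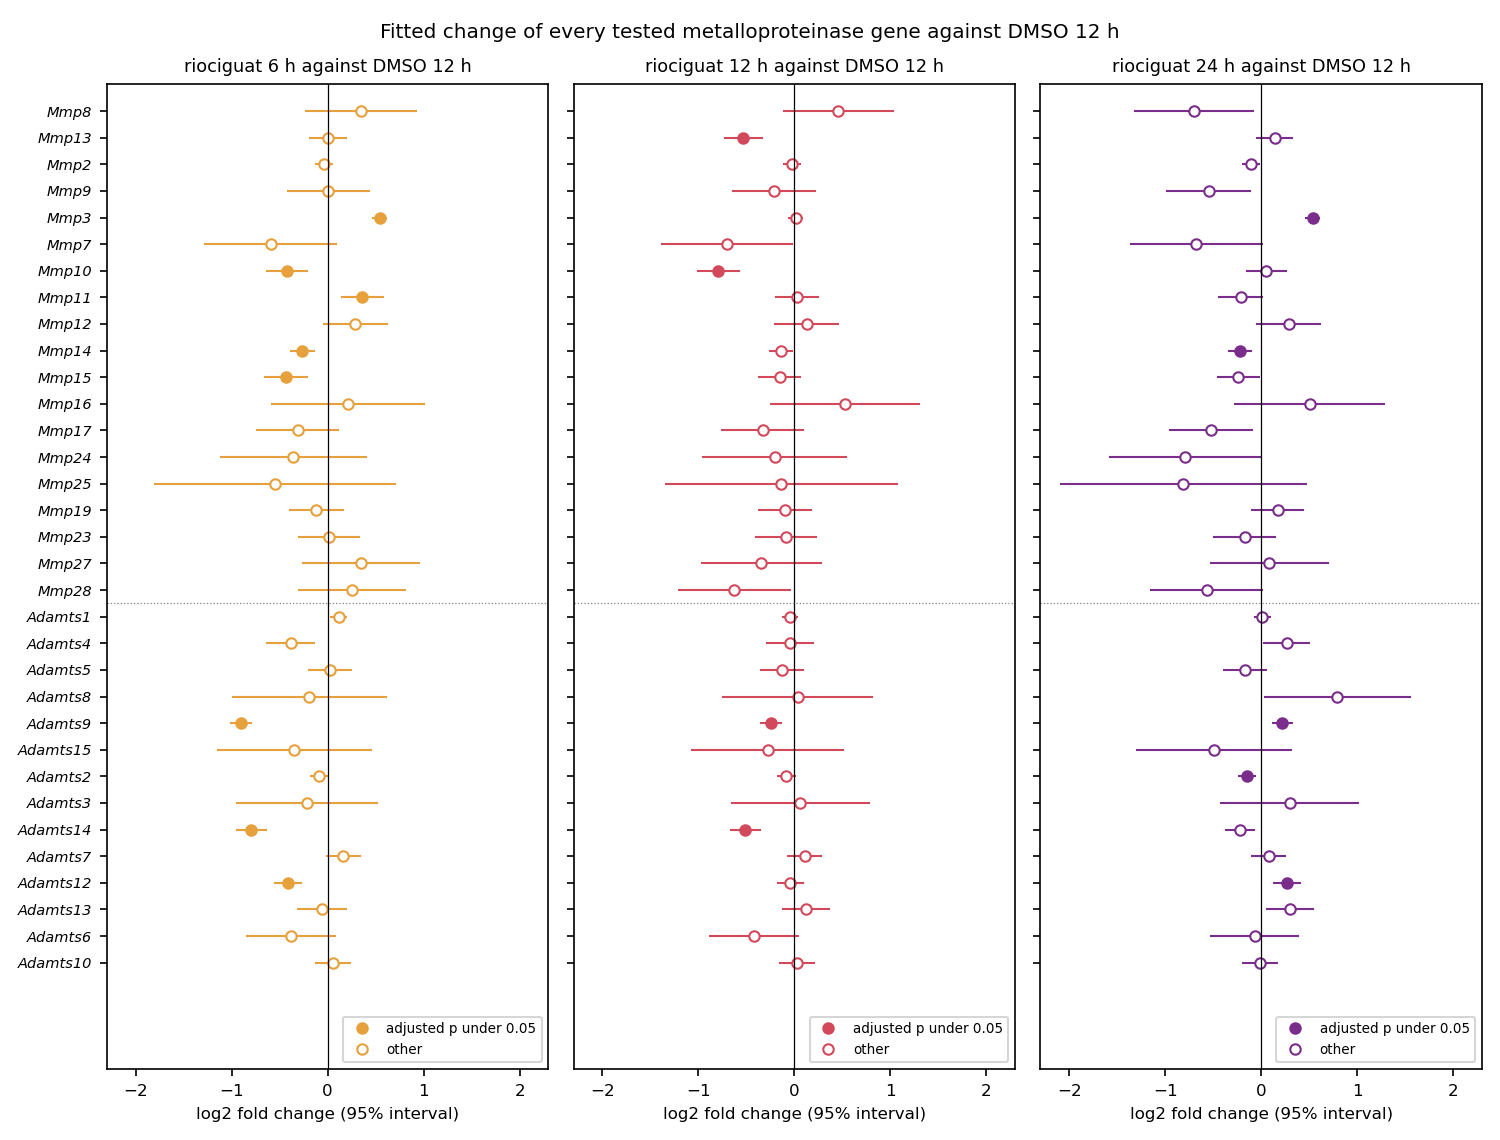
Log2 fold change of each of the 33 tested members against DMSO 12 h, for riociguat 6, 12 and 24 h from left to right, with 95% intervals; filled points had an adjusted p under 0.05 and the dotted line parts MMP from ADAMTS genes. Mmp3 lies right of 0 at 6 and 24 h (0.54 and 0.54) and on it at 12 h (0.014), and Adamts9 lies left of 0 at 6 h (-0.91) and 12 h (-0.24) and right of it at 24 h (0.22).

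Between exposure times, 7 members (21.2%) were called in each of the 3 comparisons. Riociguat 12 h against riociguat 6 h called 6.09% of all genes (2.57% higher and 3.52% lower), with 3 members higher (Adamts9, Adamts12 and Adamts14) and 4 lower (Mmp3, Mmp10, Mmp13 and Adamts1). Riociguat 24 h against riociguat 12 h called 3.08% of all genes (1.37% higher and 1.71% lower), with 6 members higher (Mmp3, Mmp10, Mmp13, Adamts9, Adamts12 and Adamts14) and 1 lower (Mmp8). Riociguat 24 h against riociguat 6 h called 15.3% of all genes (7.16% higher and 8.13% lower), with 5 members higher (Mmp10, Adamts4, Adamts9, Adamts12 and Adamts14) and 2 lower (Mmp8 and Mmp11). One test for any difference among the 4 groups called 12 members and 18.3% of all genes. These were the 13 members above without Adamts2. Leaving out riociguat 12 h replicate 1 or 2 took the first count to 4, and leaving out riociguat 24 h replicate 2 took the second count to 4.

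**Figure D3:**
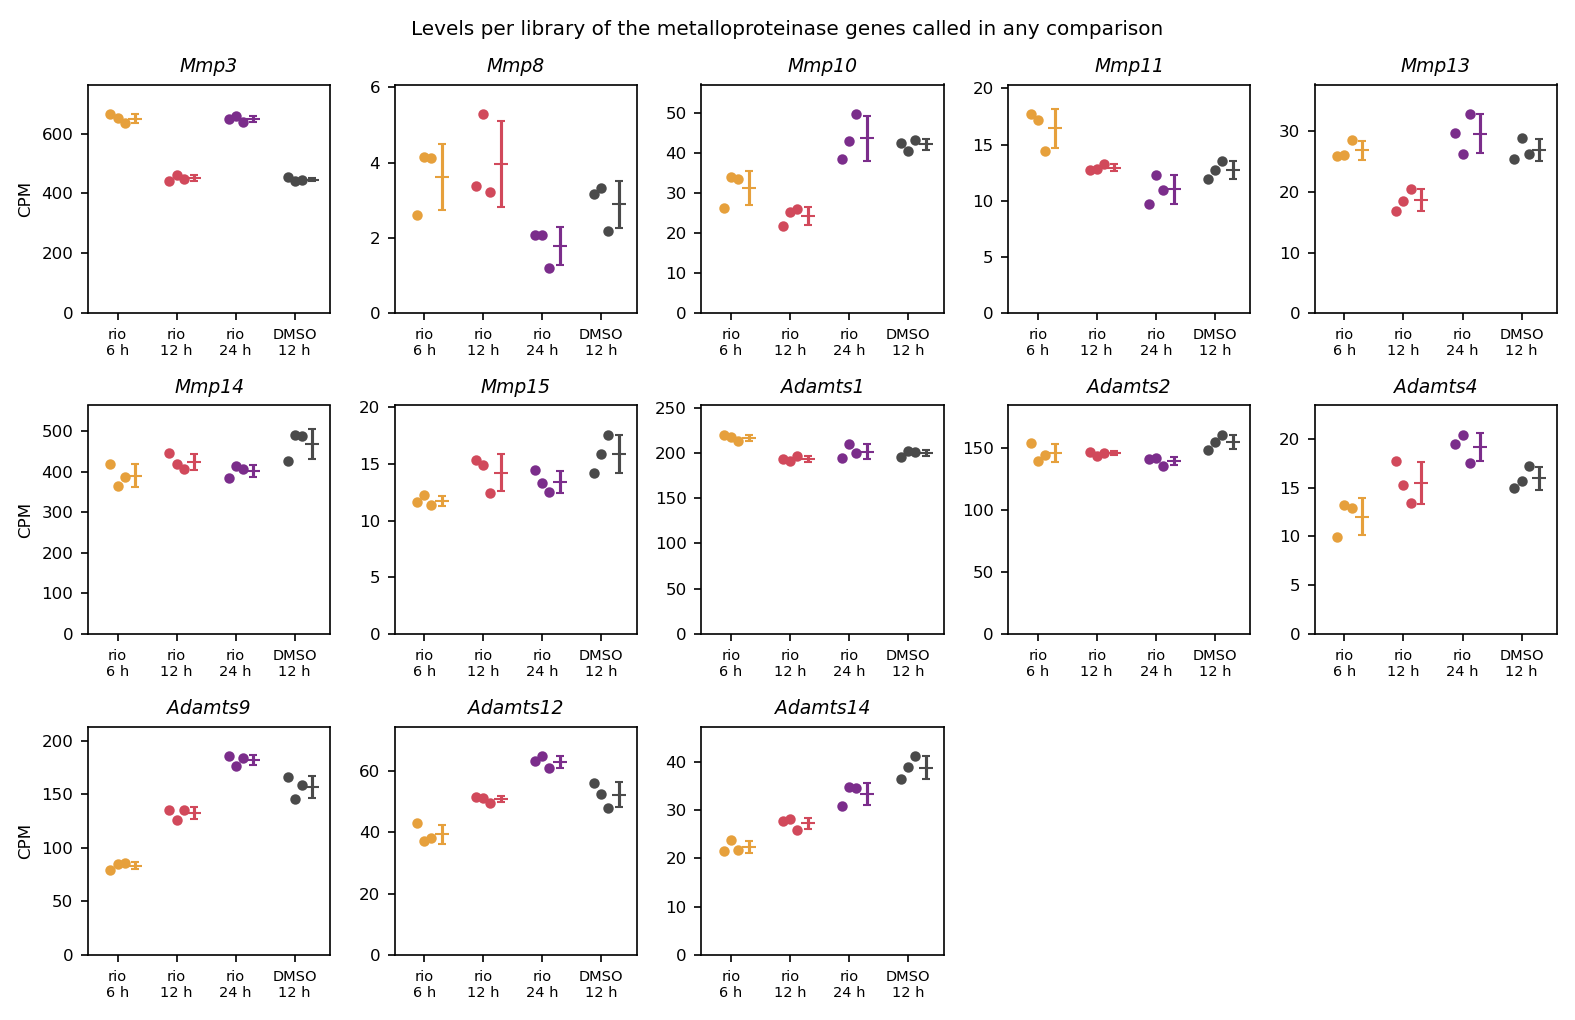
CPM in each library (points) with the group mean and SD beside them, for the 13 members called in any comparison, with riociguat 6, 12 and 24 h and DMSO 12 h from left to right in each panel and axes that start at 0. Mmp3 is high after 6 and 24 h, Mmp10 and Mmp13 are lowest after 12 h, and Adamts9, Adamts12 and Adamts14 are lowest after 6 h.

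Of the 42 members 10 lie together on chromosome 9, in 427.1 kb between 7272514 and 7699585 (GRCm38), and hold the collagenases, both main stromelysins, the metalloelastase and the matrilysin. In order these are Mmp13, Mmp12, Mmp1b, Mmp3, Mmp1a, Mmp10, Mmp8, Mmp27, Mmp20 and Mmp7. Of the 10 genes 7 were tested, and 4 were called in some comparison (57.1%, against the 25.1% of all genes given above): Mmp13, Mmp3, Mmp10 and Mmp8. With 7 genes, nothing is read from that share. Mmp3 and Mmp10, next to each other among the tested genes with Mmp1a between them, were called in different directions. After 6 h Mmp3 rose by 0.54 ± 0.037 on the log2 scale while Mmp10 fell by 0.42 ± 0.10 (SE; edgeR adjusted p = 4.99e-08 and 0.0144). After 12 h Mmp10 and Mmp13 fell, and Mmp3 had a log2 fold change of 0.014 ± 0.037 (adjusted p = 0.9045, 95% interval -0.064 to 0.092).

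**Figure D4:**
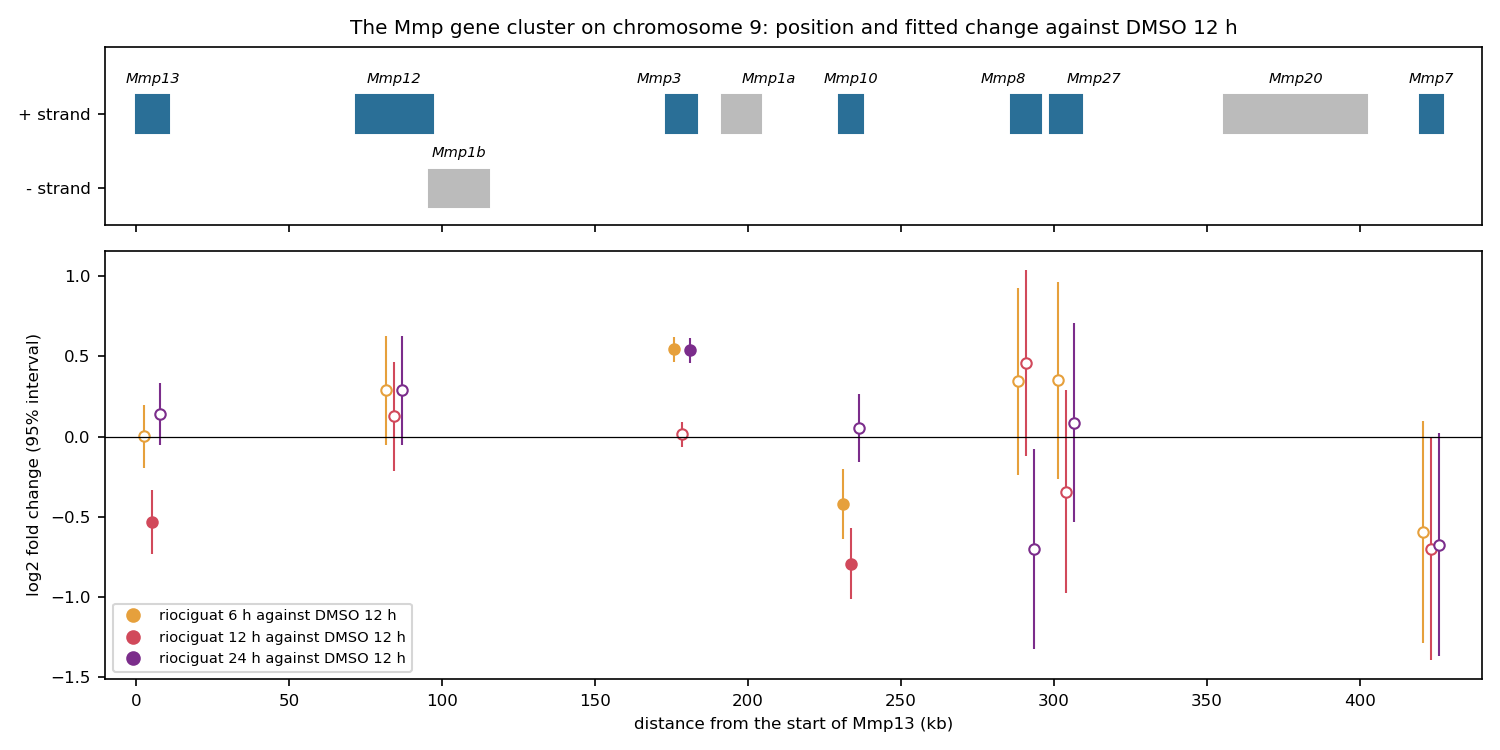
Upper panel: position and strand of the 10 Mmp genes of the chromosome 9 cluster, in kb from the start of Mmp13, with tested genes in blue and genes under the count filter in grey. Lower panel: log2 fold change against DMSO 12 h with 95% intervals after 6, 12 and 24 h of riociguat (filled where called), in which Mmp3 stays at or above 0 while Mmp10, the next tested gene along the chromosome, lies at -0.79 after 12 h.

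The start-site regions of the 4 called genes of the cluster are shown because the transcription factor AP-1, a dimer of Fos and Jun proteins, is a known regulator of stromelysin and collagenase genes. Sequences are the 100 bases before the RefSeq start (GRCm38.p6), 5′ to 3′ on the gene's strand, which is the plus strand for all of them. Capitals mark an AP-1 motif (TGANTCA, searched on both strands) and a TATA box (TATAAA, gene strand only), which do not overlap. The windows are chr9:7445722-7445821 for Mmp3, chr9:7502242-7502341 for Mmp10, chr9:7272414-7272513 for Mmp13 and chr9:7558329-7558428 for Mmp8.
Mmp3: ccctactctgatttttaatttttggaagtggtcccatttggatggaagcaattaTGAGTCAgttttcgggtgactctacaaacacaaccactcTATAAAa
Mmp10: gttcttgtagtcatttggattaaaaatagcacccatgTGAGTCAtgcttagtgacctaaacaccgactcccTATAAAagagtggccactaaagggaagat
Mmp13: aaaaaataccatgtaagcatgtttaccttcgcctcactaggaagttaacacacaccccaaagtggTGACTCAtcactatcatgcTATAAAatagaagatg
Mmp8: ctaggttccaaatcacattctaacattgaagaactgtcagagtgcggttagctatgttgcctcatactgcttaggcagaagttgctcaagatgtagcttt
The AP-1 motif begins 46 bases before the start in Mmp3, 63 in Mmp10 and 35 in Mmp13, and the TATA box 7, 29 and 16 bases before it in the same genes. Mmp8 had neither in this window nor in the 250 bases searched. Of the 28 members found in the RefSeq promoter table, 8 had an AP-1 motif within 250 bases of a start, and all 8 are genes of this cluster: Mmp1a, Mmp1b, Mmp3, Mmp7, Mmp10, Mmp12, Mmp13 and Mmp20. A member with several starts was counted if any of its windows held the motif (31 windows in all). Mmp7 and Mmp12 each had a window with it and another without it. For Mmp12 the window without it was chr9:7344147-7344396. Over all 32851 promoter windows of the table, 6.75% held the motif. TATAAA was found in 9 members and in 7.59% of all promoters. The TEAD motif GGAATG (both strands) was found in 1 member, Adamts13, and in 12.6% of all promoters, and the SRF CArG box in 0 members and 1.47% of all promoters. A match describes the letters only. Mmp3, Mmp10 and Mmp13 hold the same motif pair and were called in different sets of comparisons, and the part of these motifs in the calls was not tested.

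Among the collagenases, Mmp13 (ENSMUSG00000050578, chr9:7272514-7283331), the main collagenase of rodent fibroblasts, was lower after 12 h of riociguat and was called at no other time against DMSO. It had 25.9, 26.1 and 28.6 CPM in riociguat 6 h, 16.9, 18.5 and 20.5 CPM in riociguat 12 h and 29.8, 26.3 and 32.8 CPM in riociguat 24 h, against 25.5, 29.0 and 26.2 CPM in DMSO 12 h. All 3 libraries of riociguat 12 h lay below all other libraries, and the other groups overlapped. Mmp13 fell by 0.53 ± 0.094 on the log2 scale against DMSO (SE; edgeR adjusted p = 0.00154) and by a similar size against riociguat 6 h (-0.53 ± 0.10, adjusted p = 0.00189). It rose by 0.67 ± 0.095 in riociguat 24 h against riociguat 12 h (adjusted p = 0.000398). Against DMSO its log2 fold change was 0.001 ± 0.093 after 6 h (adjusted p = 0.997) and 0.14 ± 0.092 after 24 h (adjusted p = 0.362). All 3 calls were kept under every alternative tried.

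Mmp8, the collagenase best known from neutrophils, had few counts. It had 2.595, 4.14 and 4.115 CPM in riociguat 6 h, 3.39, 5.28 and 3.21 CPM in riociguat 12 h and 2.08, 2.08 and 1.19 CPM in riociguat 24 h, against 3.16, 3.33 and 2.18 CPM in DMSO 12 h. The 24 h libraries lay below those of the other groups, which overlapped. Mmp8 fell by 1.04 ± 0.29 in riociguat 24 h against riociguat 6 h (edgeR adjusted p = 0.0211) and by 1.16 ± 0.29 against riociguat 12 h (adjusted p = 0.0351), and against DMSO its log2 fold change was -0.70 ± 0.29 (adjusted p = 0.1325). Leaving out riociguat 6 h replicate 2 or 3, or riociguat 24 h replicate 3, ended the first call (adjusted p up to 0.107). Leaving out riociguat 12 h replicate 1 or 2, or any one riociguat 24 h library, ended the second (up to 0.2115). Neutrophil markers summed to 2.13 to 3.49 CPM in riociguat 24 h, against 4.56 to 6.27 CPM over the other groups. The only one of the 11 that passed the filter, Ltf, was lower too, with a log2 fold change of -1.05 against riociguat 6 h (adjusted p = 0.00854). Retnlg, Ly6g and Elane, 3 markers of that list, were at 0. The part of these cells, and of the hepatocyte markers that were also lowest at 24 h, in the Mmp8 result was not tested.

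The gelatinases gave no call. Mmp2, which is activated at the cell surface by Mmp14, had 202, 191 and 189.7 CPM in riociguat 6 h, 201, 199 and 187 CPM in riociguat 12 h and 184, 189 and 180.2 CPM in riociguat 24 h, against 195, 199 and 202 CPM in DMSO 12 h. Its levels stayed within a narrow range, and its log2 fold changes against DMSO were -0.035 ± 0.044, -0.022 ± 0.044 and -0.11 ± 0.044 after 6, 12 and 24 h (edgeR adjusted p = 0.696, 0.868 and 0.116). The 95% interval after 12 h was -0.11 to 0.07. Mmp9 (gelatinase B) had 6.45, 5.86 and 7.97 CPM in riociguat 6 h, 7.504, 5.16 and 4.89 CPM in riociguat 12 h and 3.85, 6.17 and 3.96 CPM in riociguat 24 h, against 7.56, 6.40 and 6.34 CPM in DMSO 12 h. After 24 h its log2 fold change was -0.55 ± 0.21 (adjusted p = 0.0988), with all 3 libraries below those of DMSO.

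Mmp3 (ENSMUSG00000043613, chr9:7445822-7455975), the stromelysin that cleaves many matrix proteins and activates other pro-MMPs, was higher after 6 h and after 24 h of riociguat and not after 12 h. It had 664.5, 651 and 636 CPM in riociguat 6 h, 441, 462 and 449 CPM in riociguat 12 h and 649.9, 658 and 638 CPM in riociguat 24 h, against 453.5, 441 and 445 CPM in DMSO 12 h. The 6 h and 24 h libraries formed 1 range well above a second range of the 12 h and DMSO libraries. Against DMSO Mmp3 rose by 0.54 ± 0.037 on the log2 scale after 6 h, a 1.46-fold level (SE; edgeR adjusted p = 4.99e-08), and by 0.54 ± 0.037 after 24 h, a 1.45-fold level (adjusted p = 2.96e-08). The direct comparisons showed the same step: Mmp3 fell by 0.53 ± 0.037 in riociguat 12 h against riociguat 6 h (adjusted p = 1.89e-07) and rose by 0.53 ± 0.037 in riociguat 24 h against riociguat 12 h (adjusted p = 3.34e-07). Between 24 h and 6 h the log2 difference was -0.0039 ± 0.037 (adjusted p = 0.965, 95% interval -0.081 to 0.074). No single library carried these calls, which were kept under every alternative tried. Stellate markers summed to 4106 to 4253 CPM in riociguat 6 h, 3705 to 3854 CPM in riociguat 12 h and 3846 to 4141 CPM in riociguat 24 h, against 3760 to 3846 CPM in DMSO 12 h, and their part in the Mmp3 result was not tested.

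Mmp10 (ENSMUSG00000047562, chr9:7502352-7510240), the second stromelysin and the next tested gene after Mmp3 in the cluster, fell with riociguat at the earlier times. It had 26.2, 33.9 and 33.5 CPM in riociguat 6 h, 21.7, 25.3 and 25.9 CPM in riociguat 12 h and 38.5, 43.0 and 49.6 CPM in riociguat 24 h, against 42.5, 40.6 and 43.2 CPM in DMSO 12 h. All 6 h and 12 h libraries lay below all DMSO libraries, while the 24 h libraries overlapped them. Mmp10 fell by 0.79 ± 0.10 after 12 h (edgeR adjusted p = 8.55e-05), the largest fitted change among the 33 tested members in the time-matched comparison, and by 0.42 ± 0.10 after 6 h (adjusted p = 0.0144). Without DMSO replicate 3, or without riociguat 6 h replicate 1, the 6 h change no longer passed (adjusted p up to 0.0586). After 24 h its log2 fold change against DMSO was 0.053 ± 0.10 (adjusted p = 0.798). It rose by 0.85 ± 0.10 in riociguat 24 h against riociguat 12 h (adjusted p = 0.000136) and by 0.47 ± 0.10 against riociguat 6 h (adjusted p = 0.00396). The lower level in riociguat 12 h than in riociguat 6 h (-0.37 ± 0.11, adjusted p = 0.0469) did not hold without riociguat 6 h replicate 2 or 3 or without any one riociguat 12 h library (adjusted p up to 0.202).

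Mmp11 (stromelysin-3), which unlike most MMPs is activated by furin inside the cell, had 17.7, 17.2 and 14.5 CPM in riociguat 6 h, 12.7, 12.8 and 13.3 CPM in riociguat 12 h and 9.74, 12.3 and 10.98 CPM in riociguat 24 h, against 11.9, 12.7 and 13.6 CPM in DMSO 12 h. The 6 h libraries were the highest and did not overlap the other groups. Mmp11 rose by 0.36 ± 0.11 after 6 h against DMSO (edgeR adjusted p = 0.0412), which no longer passed on leaving out any one DMSO library or riociguat 6 h replicate 1 or 2, or in a fit of the 6 libraries alone (adjusted p up to 0.1497). It fell by 0.58 ± 0.11 in riociguat 24 h against riociguat 6 h (adjusted p = 0.00123), which was kept under every alternative tried. Mmp12, the macrophage metalloelastase, had 39.7, 35.9 and 41.3 CPM in riociguat 6 h, 30.7, 35.4 and 38.3 CPM in riociguat 12 h and 44.8, 40.9 and 31.0 CPM in riociguat 24 h, against 41.1, 31.6 and 22.9 CPM in DMSO 12 h. It was not called, with log2 fold changes of 0.29 ± 0.16, 0.13 ± 0.16 and 0.29 ± 0.16 after 6, 12 and 24 h against DMSO (adjusted p = 0.304, 0.7715 and 0.275). The DMSO libraries of Mmp12 spread more widely than those of any riociguat group. Without DMSO replicate 1, the highest of them, Mmp12 was called higher after 6 h (0.51, adjusted p = 0.0266) and after 24 h (0.51, adjusted p = 0.02105), as it was with no filter on low counts (adjusted p = 0.00785 and 0.00544). Macrophage markers summed to 124 to 128 CPM in riociguat 6 h, 139 to 158 CPM in riociguat 12 h and 152 to 170.1 CPM in riociguat 24 h, against 137 to 149 CPM in DMSO 12 h, and their part in the Mmp12 values was not tested. Mmp7 (matrilysin) was called in no comparison and lay between 0.889 and 2.13 CPM over the 12 libraries.

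Of the membrane-type MMPs, 2 fell by small amounts after 6 h. Mmp14, the membrane-type 1 enzyme that cuts pericellular collagen, had 420.2, 365 and 387 CPM in riociguat 6 h, 447, 420 and 407 CPM in riociguat 12 h and 385, 414 and 407 CPM in riociguat 24 h, against 426, 489.8 and 489 CPM in DMSO 12 h. The 6 h and 24 h libraries all lay below the DMSO libraries by a small margin, and the 12 h libraries overlapped them. Mmp14 fell by 0.26 ± 0.06 after 6 h (edgeR adjusted p = 0.0092) and by 0.22 ± 0.06 after 24 h (adjusted p = 0.0204), and its log2 fold change after 12 h was -0.14 ± 0.06 (adjusted p = 0.230). The 6 h call ended on leaving out DMSO replicate 2 or 3, or riociguat 6 h replicate 2 (adjusted p up to 0.0591). The 24 h call ended on leaving out riociguat 24 h replicate 1 or 3, or DMSO replicate 2 or 3 (up to 0.104). Without DMSO replicate 1, the 12 h difference was called too (-0.20, adjusted p = 0.0305). Mmp15, the membrane-type 2 enzyme, had 11.6, 12.2 and 11.4 CPM in riociguat 6 h, 15.4, 14.9 and 12.4 CPM in riociguat 12 h and 14.5, 13.3 and 12.5 CPM in riociguat 24 h, against 14.2, 15.9 and 17.5 CPM in DMSO 12 h. It fell by 0.43 ± 0.11 after 6 h against DMSO (adjusted p = 0.0159), with all 3 libraries below those of DMSO. That call did not survive leaving out DMSO replicate 2 or 3, or riociguat 6 h replicate 3 (adjusted p up to 0.0859). Mmp16, Mmp24, Mmp17 and Mmp25, of which the last pair is held in the membrane by a lipid anchor, gave no call. They lay between 0.242 and 6.61 CPM in single libraries, with log2 fold changes against DMSO between -0.81 and 0.53.

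Of the remaining MMPs none was called. Mmp19, a widely expressed MMP, had 16.5, 16.8 and 12.8 CPM in riociguat 6 h, 15.35, 16.8 and 14.0 CPM in riociguat 12 h and 14.9, 21.5 and 19.7 CPM in riociguat 24 h, against 16.0, 15.5 and 18.2 CPM in DMSO 12 h, with log2 fold changes of -0.12 ± 0.13, -0.10 ± 0.13 and 0.17 ± 0.13 after 6, 12 and 24 h against DMSO (edgeR adjusted p = 0.663, 0.782 and 0.458). Without riociguat 24 h replicate 1, Mmp19 was called higher in riociguat 24 h than in riociguat 6 h (0.43, adjusted p = 0.0311). Mmp23 and Mmp27 lay between 7.42 and 10.8 CPM and between 1.09 and 2.13 CPM over the 12 libraries. Mmp28 (epilysin) averaged 3.06 ± 0.410 CPM in riociguat 6 h, 1.68 ± 0.335 CPM in riociguat 12 h and 1.725 ± 0.622 CPM in riociguat 24 h, against 2.59 ± 0.216 CPM in DMSO 12 h (SD, n = 3 each). Its log2 difference between riociguat 12 h and riociguat 6 h, -0.88 ± 0.28, did not pass the test (adjusted p = 0.0759).

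Among the ADAMTS proteoglycanases, Adamts9 (ENSMUSG00000030022, chr6:92772699-92943492) cleaves versican and aggrecan. Its called changes were the largest of the ADAMTS genes after 6 h against DMSO and between exposures. Against DMSO, Adamts14 changed more after 12 h (-0.51) and Adamts12 after 24 h (0.27). Adamts9 had 79.8, 84.6 and 85.8 CPM in riociguat 6 h, 135, 126 and 136 CPM in riociguat 12 h and 185.5, 176.5 and 184 CPM in riociguat 24 h, against 166, 145.5 and 158 CPM in DMSO 12 h. The riociguat groups did not overlap each other and stood in the order of exposure time, with DMSO between 12 h and 24 h. Against DMSO Adamts9 fell by 0.91 ± 0.054 after 6 h (SE; edgeR adjusted p = 1.49e-08), a 0.534-fold level. It fell by 0.24 ± 0.053 after 12 h (adjusted p = 0.00861) and rose by 0.22 ± 0.052 after 24 h (adjusted p = 0.00956). The 12 h change no longer passed without riociguat 12 h replicate 2 (adjusted p = 0.07465), nor the 24 h change without DMSO replicate 2 (adjusted p = 0.06795). The differences between exposures were kept under every alternative tried. Adamts9 rose by 0.66 ± 0.054 in riociguat 12 h against riociguat 6 h (adjusted p = 9.31e-07), by 0.46 ± 0.053 in riociguat 24 h against riociguat 12 h (adjusted p = 6.91e-05) and by 1.12 ± 0.054 in riociguat 24 h against riociguat 6 h (adjusted p = 6.68e-10), a 2.18-fold level. The summed macrophage markers (124 to 128, 139 to 158 and 152 to 170.1 CPM after 6, 12 and 24 h of riociguat, against 137 to 149 CPM in DMSO 12 h) had the same order of groups for riociguat. The endothelial sums given above ran the other way, but the markers of that list differed. After 24 h against DMSO, Pecam1, Cdh5, Stab1, Tek, Flt1 and Ptprb were called lower. Fcgr2b (0.44, edgeR adjusted p = 2.60e-05) and Clec4g (0.41, adjusted p = 0.0114) were called higher, and the other endothelial markers were not called. Within the macrophage list the markers differed. Lyz2 had log2 fold changes of -0.32 and 0.40 after 6 and 24 h against DMSO (edgeR adjusted p = 0.0370 and 0.0065). After 24 h Csf1r, Cd68, Adgre1 and Clec4f had negative log2 fold changes against DMSO, none of them called, and the other tested markers positive ones. Csf1r also fell in riociguat 24 h against riociguat 12 h (-0.30 ± 0.076, adjusted p = 0.0433). The cholangiocyte list had the order of the macrophage sums (513 to 563, 661 to 754 and 983 to 1025 CPM after 6, 12 and 24 h, against 549 to 591 CPM in DMSO 12 h), which its member Spp1 set. Without Spp1 its other 7 markers summed to 251 to 271, 298 to 339.6 and 256 to 297 CPM after 6, 12 and 24 h of riociguat, against 293 to 309 CPM in DMSO 12 h. The part of these cells in the Adamts9 result was not tested.

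Adamts1, an abundant proteoglycanase, had 219.5, 217 and 213 CPM in riociguat 6 h, 193, 191 and 197 CPM in riociguat 12 h and 194, 210.2 and 199.7 CPM in riociguat 24 h, against 196, 202 and 202 CPM in DMSO 12 h. The 6 h libraries were the highest by a small margin. Adamts1 was called in 1 comparison, in which it fell by 0.16 ± 0.041 in riociguat 12 h against riociguat 6 h (edgeR adjusted p = 0.0238). Leaving out any one riociguat 6 h library, or riociguat 12 h replicate 1 or 2, or using no filter on low counts ended that call (adjusted p up to 0.111). Against DMSO its log2 fold change after 6 h was 0.12 ± 0.041 (adjusted p = 0.0873). Adamts4 (aggrecanase-1) had 9.91, 13.25 and 12.9 CPM in riociguat 6 h, 17.7, 15.3 and 13.4 CPM in riociguat 12 h and 19.5, 20.35 and 17.6 CPM in riociguat 24 h, against 14.9, 15.7 and 17.2 CPM in DMSO 12 h. It rose by 0.65 ± 0.12 in riociguat 24 h against riociguat 6 h (adjusted p = 0.001035), kept under every alternative tried. Against DMSO it had log2 fold changes of -0.39 ± 0.12, -0.043 ± 0.12 and 0.26 ± 0.12 after 6, 12 and 24 h (adjusted p = 0.0525, 0.909 and 0.157), none of them called. The 6 h difference passed without DMSO replicate 1, with no filter on low counts and with DESeq2 (adjusted p = 0.0434, 0.0218 and 0.0343). Adamts5 (aggrecanase-2) had 14.4, 14.3 and 13.5 CPM in riociguat 6 h, 10.9, 12.55 and 14.4 CPM in riociguat 12 h and 11.1, 12.5 and 13.25 CPM in riociguat 24 h, against 13.45, 14.5 and 13.4 CPM in DMSO 12 h, and was called in no comparison. Its log2 fold change after 12 h against DMSO was -0.13 ± 0.11, with a 95% interval of -0.36 to 0.10. Adamts8 and Adamts15 averaged at most 2.20 and 1.34 CPM in a group and gave no call.

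The procollagen N-propeptidases remove the amino-terminal propeptide of fibrillar procollagens, a step in fibril assembly. Adamts14 (ENSMUSG00000059901, chr10:61197112-61273438) was lower after 6 h and 12 h of riociguat. It had 21.6, 23.7 and 21.65 CPM in riociguat 6 h, 27.8, 28.1 and 25.8 CPM in riociguat 12 h and 30.8, 34.7 and 34.7 CPM in riociguat 24 h, against 36.5, 38.8 and 41.15 CPM in DMSO 12 h. All 9 riociguat libraries lay below all 3 DMSO libraries. Adamts14 fell by 0.80 ± 0.077 after 6 h (edgeR adjusted p = 2.67e-06) and by 0.51 ± 0.075 after 12 h (adjusted p = 0.000262), both kept under every alternative tried. After 24 h its log2 fold change was -0.22 ± 0.075 (adjusted p = 0.06235), which passed only without DMSO replicate 1 (adjusted p = 0.0374). Between exposures it rose by 0.58 ± 0.078 in riociguat 24 h against riociguat 6 h (adjusted p = 4.96e-05). The smaller steps of 0.29 ± 0.078 in riociguat 12 h against riociguat 6 h (adjusted p = 0.0367) and 0.29 ± 0.076 in riociguat 24 h against riociguat 12 h (adjusted p = 0.0458) depended on single libraries. The first no longer passed on leaving out riociguat 6 h replicate 1 or 3, or riociguat 12 h replicate 1 or 2 (adjusted p up to 0.1546). The second no longer passed on leaving out any riociguat 12 h library, or riociguat 24 h replicate 2 or 3, or in a fit of the 6 libraries alone (up to 0.191). Adamts2, the main enzyme of this kind, had 154, 139.8 and 145 CPM in riociguat 6 h, 147, 144 and 146 CPM in riociguat 12 h and 141, 142 and 136 CPM in riociguat 24 h, against 149, 155 and 160.4 CPM in DMSO 12 h. It fell by 0.15 ± 0.046 after 24 h (adjusted p = 0.0428), a call kept in 2 of 11 alternatives. Among others, leaving out any one riociguat 24 h library, or DMSO replicate 2 or 3, ended it, as did RLE factors and no filter on low counts (adjusted p up to 0.1797). Adamts3 lay between 0.791 and 2.25 CPM over the 12 libraries and gave no call.

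Adamts7 and Adamts12 cleave cartilage oligomeric matrix protein. Adamts12 had 42.9, 37.1 and 38.15 CPM in riociguat 6 h, 51.5, 51.2 and 49.6 CPM in riociguat 12 h and 63.3, 64.7 and 60.9 CPM in riociguat 24 h, against 56.2, 52.5 and 48.0 CPM in DMSO 12 h. The 6 h libraries lay below and the 24 h libraries above all others, and the 12 h libraries fell within the DMSO range. Adamts12 fell by 0.41 ± 0.069 after 6 h (edgeR adjusted p = 0.000778) and rose by 0.27 ± 0.067 after 24 h against DMSO (adjusted p = 0.0123), and its log2 fold change after 12 h was -0.042 ± 0.068 (adjusted p = 0.832). The 24 h change no longer passed without DMSO replicate 3 (adjusted p = 0.0716). Between exposures it rose by 0.37 ± 0.069 in riociguat 12 h against riociguat 6 h (adjusted p = 0.00265) and by 0.68 ± 0.069 in riociguat 24 h against riociguat 6 h (adjusted p = 2.06e-06). The step of 0.31 ± 0.068 in riociguat 24 h against riociguat 12 h (adjusted p = 0.0141) no longer passed without riociguat 12 h replicate 3 or without riociguat 24 h replicate 2 (up to 0.0684). The part of the macrophage and endothelial markers, with the sums listed beside Adamts9, in the Adamts12 result was not tested. Adamts7 had 35.0, 33.5 and 39.6 CPM in riociguat 6 h, 34.95, 35.2 and 34.2 CPM in riociguat 12 h and 36.4, 34.5 and 31.4 CPM in riociguat 24 h, against 30.05, 30.5 and 36.3 CPM in DMSO 12 h, and was called in no comparison. Its log2 fold changes against DMSO were 0.16 ± 0.086, 0.11 ± 0.086 and 0.078 ± 0.087 after 6, 12 and 24 h. Comp itself was under the filter on low counts.

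Adamts13, the protease that cuts von Willebrand factor and is made in the liver mainly by stellate cells, was present at 9.87 ± 0.499 CPM in riociguat 6 h, 11.2 ± 1.205 CPM in riociguat 12 h and 12.7 ± 1.34 CPM in riociguat 24 h, against 10.3 ± 1.01 CPM in DMSO 12 h (SD, n = 3 each). Its log2 difference between riociguat 24 h and riociguat 6 h was 0.36 ± 0.12 and did not pass the test (edgeR adjusted p = 0.0552). Adamts10, which acts on fibrillin microfibrils, had 22.2, 25.4 and 25.1 CPM in riociguat 6 h, 23.9, 22.5 and 25.2 CPM in riociguat 12 h and 21.9, 25.5 and 22.5 CPM in riociguat 24 h, against 21.6, 22.9 and 25.8 CPM in DMSO 12 h. All groups overlapped, and its log2 fold change after 12 h against DMSO was 0.025 ± 0.088, with a 95% interval of -0.16 to 0.21. Its relative Adamts6 lay between 2.66 and 4.79 CPM and gave no call.

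Inhibitors of these proteases were measured in the same libraries, and of 9 listed genes 6 were tested. Timp3, which binds to the matrix and inhibits ADAMTS and ADAM proteases as well as MMPs, averaged 307 ± 20.6 CPM in riociguat 6 h, 166 ± 13.5 CPM in riociguat 12 h and 174.5 ± 19.4 CPM in riociguat 24 h, against 437 ± 22.8 CPM in DMSO 12 h (SD, n = 3 each). It fell by 0.51 ± 0.073, 1.40 ± 0.075 and 1.32 ± 0.075 on the log2 scale after 6, 12 and 24 h (edgeR adjusted p = 0.000183, 2.87e-09 and 3.43e-09). Timp2, which joins Mmp14 in activating pro-Mmp2, fell in all 3 comparisons too, with log2 fold changes of -0.35 ± 0.044, -0.29 ± 0.044 and -0.46 ± 0.044. Timp1 averaged 144 ± 4.41, 185 ± 16.5 and 262 ± 24.97 CPM after 6, 12 and 24 h of riociguat, against 160.3 ± 4.70 CPM in DMSO 12 h. Its log2 fold changes were -0.16 ± 0.068 after 6 h (adjusted p = 0.164), 0.21 ± 0.067 after 12 h (adjusted p = 0.0950) and 0.71 ± 0.067 after 24 h (adjusted p = 1.24e-06), and only the last was called. The 12 h difference of Timp1 passed in 3 of 11 alternatives: without riociguat 12 h replicate 2, with no filter on low counts and with DESeq2 (adjusted p = 0.0230, 0.00163 and 0.0306). Reck, a membrane-anchored inhibitor, gave no call, with 0.018 ± 0.073, 0.047 ± 0.073 and 0.14 ± 0.073 after 6, 12 and 24 h. Timp4 was under the filter. In the time-matched comparison, Timp2 and Timp3 were thus lower in the same libraries as Mmp10, Mmp13, Adamts9 and Adamts14.

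Other genes of the pathway were counted against the same backgrounds of 5.66%, 9.72% and 13.4% of all genes after 12, 6 and 24 h. Their calls, like those of the inhibitors, come from lists that were chosen with results of these data known. Of 11 activators of pro-MMPs, all tested, 1 fell: Plau, the urokinase gene, with a log2 fold change of -0.32 ± 0.072 (edgeR adjusted p = 0.0115). Without DMSO replicate 3, or without riociguat 12 h replicate 3, it no longer passed (up to 0.0553). After 6 h 0 of the 11 were called, and after 24 h 4 fell (Plau, Plg, Plaur and Klkb1), of which Plg and Klkb1 are hepatocyte products. The Klkb1 call ended on leaving out any one riociguat 24 h library, or DMSO replicate 1 or 2 (adjusted p up to 0.109). After 24 h 10 of the 12 hepatocyte markers fell as well, and their part in the values of Plg and Klkb1 was not tested. Of 8 tested ADAM sheddases, membrane proteases related to the ADAMTS family, 3 fell after 12 h: Adam19 (-0.82 ± 0.052), Adam12 (-0.47 ± 0.063) and Adam9 (-0.22 ± 0.048). The Adam9 call ended on leaving out riociguat 12 h replicate 2 (adjusted p = 0.0617). After 6 h the same 3 genes fell and Adam10 rose, and after 24 h Adam8, Adam12 and Adam19 fell and Adam17 rose. The 6 h call of Adam9 ended without DMSO replicate 2 or 3 or without riociguat 6 h replicate 1 (up to 0.0983), and the 24 h call of Adam17 without riociguat 24 h replicate 1 (0.0821). That of Adam8 ended without riociguat 24 h replicate 1 or 3 or without DMSO replicate 1 or 2 (up to 0.131). Adam12 had its lowest level after 6 h, at 69.0 ± 3.55 CPM in riociguat 6 h, 107 ± 5.815 CPM in riociguat 12 h and 114 ± 5.35 CPM in riociguat 24 h, against 148 ± 12.4 CPM in DMSO 12 h. The 7 ADAMTS-like genes, which encode matrix proteins without protease activity, had no call after 12 h and 1 lower gene each after 6 h (Adamtsl3) and 24 h (Adamtsl5). The call of Adamtsl3 ended on leaving out any one riociguat 6 h library, or DMSO replicate 2 or 3 (adjusted p up to 0.207).

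Of 13 tested substrates of ADAMTS proteases, 2 rose and 1 fell after 12 h. Col3a1 had a log2 fold change of 0.29 ± 0.059, Vcan, the gene of versican, 0.22 ± 0.057, and Col1a2 -0.25 ± 0.066 (edgeR adjusted p = 0.00544, 0.0280 and 0.0280). The Vcan and Col1a2 calls did not survive leaving out riociguat 12 h replicate 2 or 3, or DMSO replicate 2 or 3, and that of Col1a2 also riociguat 12 h replicate 1 (adjusted p up to 0.1297 for Vcan and 0.161 for Col1a2). After 6 h 5 of the 13 fell (Vwf, Col1a1, Col1a2, Fbn1 and Bgn), and after 24 h 4 rose (Vcan, Col3a1, Dcn and Nid1) and 2 fell (Col1a1 and Col1a2). The 6 h call of Vwf ended without riociguat 6 h replicate 1 or 2 or without DMSO replicate 1 or 2 (adjusted p up to 0.123). After 24 h, the Col1a2 call ended without riociguat 24 h replicate 1 or 2 or without DMSO replicate 2 or 3 (up to 0.1001), and the Dcn call without riociguat 24 h replicate 1 or without DMSO replicate 2 or 3 (up to 0.127). The Nid1 call ended without riociguat 24 h replicate 3 or without DMSO replicate 2 (up to 0.0558). Of 13 transcription factor genes that act on MMP promoters, including those of the AP-1 and Ets families, 3 fell and 1 rose after 12 h: Fosl2 (-0.35 ± 0.045), Ets1 (-0.29 ± 0.038), Egr1 (-0.20 ± 0.053) and Ets2 (0.19 ± 0.049). The calls of Egr1 and Ets2 ended on leaving out DMSO replicate 2 or 3 or any one riociguat 12 h library (adjusted p up to 0.179 for Egr1 and 0.118 for Ets2). After 6 h 4 of the 13 fell (Fosb, Junb, Jund and Ets1) and 0 rose, and of these calls that of Ets1 was kept under every alternative tried. Those of Fosb, Junb and Jund each ended without riociguat 6 h replicate 2, among other libraries (adjusted p up to 0.1345). After 24 h 8 fell and 0 rose. The calls of Fosb, Jun, Ets1 and Egr1 were kept under every alternative tried, while those of Fosl1, Fosl2, Jund and Rela each ended without DMSO replicate 3, among other libraries (up to 0.171). Egr1 had the largest of these changes, with a log2 fold change of -0.73 ± 0.054 after 24 h (edgeR adjusted p = 6.67e-08).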

How the data were processed

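The deposited table holds estimated counts per gene for 12 RNA sequencing libraries, which the authors made from the reads; all values are whole numbers. Per the submitters' processing notes, FastQC, fastp, Salmon and DESeq2 were used with genome build GRCm38. Their roles and versions, the strand setting and the annotation release are not stated there. Reads shared by similar or overlapping genes may be split between them.

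Members and gene lists were chosen with earlier results of these data known. Identifiers were matched to symbols for 53355 of 53452 genes. Positions and exon lengths come from GENCODE vM21 (GRCm38). Library totals of 12953096 to 27358893 counts limit the precision of scarce members, and the limit given for 0 counts covers counting error only.

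The two-sided quasi-likelihood test of edgeR 4.0.16 (R 4.3.3; glmQLFit, then glmQLFTest) was run on genes kept by filterByExpr at a minimum count of 10, with TMM scaling. All 4 groups entered 1 fit, with group as the only term, 8 residual degrees of freedom and Benjamini-Hochberg adjustment over 16036 genes. The standard error comes from the moderated F statistic. CPM use the TMM factors. The steps were tested on simulated data. Named with every library are the members called in any comparison and the 6 uncalled members with the highest mean CPM. Related genes are named where called after 12 h, with at most 4 per list, and Timp1, Timp2, Timp3, Timp4 and Reck whatever their p. Other related genes were named after their values were seen. Alternatives were RLE factors, no filter, DESeq2 1.42.0, a replicate block, only the 6 libraries compared, and each library left out.

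Motifs were searched in the 250 bases before each start in a RefSeq promoter table (GRCm38.p6), which held 28 of the 42 members. The TATA box was added to the search after the other motifs had been set.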

Additional observations from a re-analysis of the deposited data

Results flagged for a closer look

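For 2 members, riociguat exposures had called changes of opposite direction against the same DMSO libraries, and the direct comparison of the exposures was called as well. In the fit the direct comparison is the difference of the 2 changes against DMSO, so its call adds no separate support. Adamts9 rose against DMSO after 24 h and fell after 6 h and 12 h. Its 24 h call ended without DMSO replicate 2 (edgeR adjusted p = 0.06795), and its 12 h call without riociguat 12 h replicate 2 (0.07465). The log2 difference between riociguat 24 h and riociguat 6 h was 1.1236, and that between riociguat 24 h and riociguat 12 h was 0.461 (edgeR adjusted p = 6.68e-10 and 6.91e-05), each with 3 of 3 libraries of riociguat 24 h above all libraries of the shorter exposure. Adamts12 rose against DMSO after 24 h, a call that ended without DMSO replicate 3 (edgeR adjusted p = 0.0716), and fell after 6 h. Its log2 difference between riociguat 24 h and riociguat 6 h was 0.6828 (edgeR adjusted p = 2.06e-06), again with 3 of 3 libraries of riociguat 24 h above all of riociguat 6 h. The DMSO group was exposed for 12 h, so exposure time and time of addition cannot be told apart in these differences.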

How the results depend on the processing

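Of 38 member calls over the 6 comparisons, 22 were kept under every alternative that was run (17 settings, including each library left out), and 8 of the 13 called members had at least 1 such call. Of 1254 alternative values of the named members, 63 lost a call and 11 gained one. No log2 fold change with a call in either fit changed sign. Values with no call in either fit are counted in the 1254 too, and some of them changed sign. For Adamts12 after 12 h against DMSO they ran from -0.0985 to 0.0131. Leaving out 1 library moved the count of called members to between 4 and 9 for riociguat 6 h against DMSO 12 h (8 in the full fit), 2 and 7 for riociguat 24 h against DMSO 12 h (5), 4 and 6 for riociguat 12 h against riociguat 6 h (7), and 4 and 6 for riociguat 24 h against riociguat 12 h (7). The count stayed between 3 and 5 for riociguat 12 h against DMSO 12 h (4). Fewer libraries leave fewer degrees of freedom. Members under 5 CPM had a median standard error of 0.34 on the log2 scale, which limits what could be called for them.

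Same-numbered libraries of different groups did not deviate together: their correlations lay between -0.20 and 0.17 over 18 pairs, against -0.14 to 0.15 for other pairs. These values gave no sign that the numbers pair the samples, but with 3 libraries per group they cannot exclude it. With the replicate number as a block, the counts of called members were 4, 7 and 4 against DMSO after 12, 6 and 24 h of riociguat, and 7, 6 and 7 for riociguat 12 h against 6 h, 24 h against 12 h and 24 h against 6 h. Among the 4 groups the block gave 10 called members. Of the calls named in the text, the block ended those of Mmp11 after 6 h (adjusted p = 0.0596), Adamts2 after 24 h (0.0686), Vcan after 12 h (0.0503) and Adamtsl3 after 6 h (0.0565) against DMSO, Adamts14 in riociguat 24 h against riociguat 12 h (0.0566) and Rela after 24 h (0.0547).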
